A study of Homo sapiens with 6 samples.

Results

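The messages of 10 serine/arginine-rich (SR) splicing factor genes, SRSF1, SRSF2, SRSF3, SRSF4, SRSF5, SRSF6, SRSF7, SRSF10, SRSF11 and TRA2A, were followed in 3 human lung cancer cell lines after a kaurane-type diterpenoid or its solvent. The genes were taken by name from a table of 60671 Ensembl genes, and the list was chosen with earlier results of these data known. All 10 were present there and passed the filter on low counts with 20344 genes in all. The lines were A549, HCC827 and H1975, all 3 derived from non-small cell lung cancer and all labelled WT in the genotype field. Each line received DMSO, the solvent control, or AL-X for 48 h. AL-X is 9α,11α-dihydroxy-kaurenoic acid (9α,11αOH-KA), an acid of the kaurane family with 2 hydroxyl groups, given at 10 µg/mL. Each line and treatment gave 1 library, so there were 6 libraries, 3 with DMSO and 3 with AL-X. The labels do not name more than 1 culture per library, so the 3 lines are the only replicates. A p-value here weighs an effect against the spread between the 3 lines, moderated by the spread of all genes tested. It does not cover the spread between cultures of a line.

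SR proteins bind short sequences in exons through an RNA recognition motif and recruit the spliceosome through a region rich in arginine and serine, usually a tail. The serines of that region are phosphorylated by SRPK kinases in the cytoplasm and CLK kinases in the nucleus, which sets where the proteins go and when they act. Many SR genes also limit their own amount: the protein promotes splicing of an exon that carries a stop codon, and the resulting message is destroyed by nonsense-mediated decay.

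The arginine/serine region is what defines the family, and runs of it can be read in the coding sequence of every member. Arginine and serine codons made up 26.9% (SRSF11) to 45.7% (SRSF2) of the codons of the principal transcript, whose coding part ran from 164 codons (SRSF3) to 494 codons (SRSF4). The longest unbroken run of such codons held 8 to 25 codons. The runs of 6 members are shown to make the shared design visible, in coding orientation on GRCh38 with GENCODE 29 exons, with arginine codons in capitals and serine codons in lower case.
SRSF1 chr17:58005496-58005543 (minus strand): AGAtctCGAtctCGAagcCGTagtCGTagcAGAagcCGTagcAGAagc
SRSF2 chr17:76736398-76736460 (minus strand): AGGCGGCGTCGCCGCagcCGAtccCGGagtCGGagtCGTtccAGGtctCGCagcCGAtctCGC
SRSF3 chr6:36601781-36601974 (plus strand): tctAGGtctCGTagtCGAtctAGGtca
SRSF6 chr20:43460231-43460578 (plus strand): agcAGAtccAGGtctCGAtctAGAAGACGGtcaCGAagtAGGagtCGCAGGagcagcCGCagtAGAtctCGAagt
SRSF7 chr2:38748638-38749548 (minus strand): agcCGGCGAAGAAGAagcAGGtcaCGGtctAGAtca
TRA2A chr7:23516441-23516464 (minus strand): AGGAGACGAtctCGAagtAGAtca
The run of SRSF6 was the longest of the 10, with 25 codons, 13 of them for arginine, across the junction of exons 4 and 5. The run of SRSF1 lay near the end of the protein, in codons 204 to 219 of 248, within exon 4, and alternated the 2 amino acids over 16 codons. That of TRA2A lay in codons 79 to 86 of 282, before the middle of the protein and so not in a tail. The run of SRSF2 opened with 5 arginine codons in a row, within exon 2, the last exon of its principal transcript. The runs of SRSF3 and SRSF7 crossed an intron, so their coordinates cover more bases than the letters printed.

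The starts of the genes were not alike in the same way. RefSeq promoter windows (GRCh38.p14, the 250 bases before the start) were found for 8 of the 10 members, all but SRSF2 and TRA2A, in 10 windows. The windows of SRSF3 and SRSF7 are shown because these genes had the highest AL-X to DMSO ratios among the 8 in A549 and H1975, with each match to a searched motif in capitals.
SRSF3 chr6:36594112-36594361 (plus strand): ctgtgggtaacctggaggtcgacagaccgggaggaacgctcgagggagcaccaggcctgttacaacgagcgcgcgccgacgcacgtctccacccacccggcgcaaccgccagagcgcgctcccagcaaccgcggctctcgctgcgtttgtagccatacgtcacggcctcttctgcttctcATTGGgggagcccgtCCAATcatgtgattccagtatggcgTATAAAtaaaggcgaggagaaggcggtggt
SRSF7 chr2:38751495-38751744 (minus strand): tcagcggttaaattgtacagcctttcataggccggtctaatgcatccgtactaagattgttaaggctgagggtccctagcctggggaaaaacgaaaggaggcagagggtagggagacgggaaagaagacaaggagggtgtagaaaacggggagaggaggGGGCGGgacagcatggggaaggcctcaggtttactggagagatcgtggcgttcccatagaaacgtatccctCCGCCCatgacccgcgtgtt
The SRSF3 window held CCAAT on either strand, 70 and 55 bases before the start, the farther one being written ATTGG here, and TATAAA 30 bases before it. The SRSF7 window held GGGCGG 91 bases before the start and, on the other strand, 20 bases before it, where it is written CCGCCC. Of the 8 motifs searched on both strands, GGGCGG (a GC box) was found in SRSF4, SRSF6 and SRSF7 (4 of 10 member windows), against 42.6% of all 35116 windows. The windows of SRSF7 overlap and share GGGCGG matches, so these 4 windows stand for 3 genes. TATAAA was found in SRSF3, SRSF7 and SRSF11 (3 of 10 member windows), against 10.7% of windows. CCAAT was found in SRSF3 (1 of 10), against 32.0%, and CCGGAAG in SRSF4 and SRSF5 (2 of 10), against 8.52%. TGACGTCA, GAANNTTC, CACGTG and TGATGNAA were in none of the member windows and in 1.65%, 5.78%, 6.34% and 3.14% of all windows. For SRSF7 and SRSF11 a second start is annotated, and the TATAAA of both genes lay in the window of that other start, so the SRSF7 letters above do not hold it. The SRSF7 match lay 27 bases before that start. The SRSF11 match was on the opposite strand, 206 bases before a start that is 15698 bases from the GENCODE start of the gene. A match is a description of the letters and not a binding site.

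The libraries held 98139178 to 126840915 counts. Between 6.41% and 6.87% of the counts of the DMSO libraries came from mitochondrial genes, against 0.0201% in A549, 0.656% in HCC827 and 0.0535% in H1975 with AL-X, and the part of this difference in the SR gene values was not tested. With mitochondrial genes left out of the fit, the median SR gene fold across lines, on the log2 scale, was 0.91, as with them. That fit kept 20238 of the 20344 genes, and its scaling rests on the bulk of genes. It therefore cannot show what part the mitochondrial difference has. The scaling factors (TMM, which sets the bulk of genes level between libraries) were 0.557 for A549 with AL-X and 0.903 to 1.27 for the other 5 libraries. With library totals as the only scaling, log2 folds within a line moved by -1.0 in A549, 0.13 in HCC827 and -0.41 in H1975, relative to the TMM values used below. Of the epithelial markers, KRT8 and KRT18 were at 363 to 2789 CPM (counts in 1e6 counts, after that scaling) in every library, whereas EPCAM and KRT19 were at 1.47 to 5.00 CPM in A549 and at 190 to 1071 CPM in the other lines. CDH1 was at 209 CPM with DMSO and 15.6 CPM with AL-X in A549, and at 405 to 606 CPM in the other lines. KRT7 was at 953 and 2607 CPM in A549 (DMSO, then AL-X), with log2 folds of 1.45, -0.26 and 1.68 in A549, HCC827 and H1975 (0.45, -0.14 and 1.27 with library totals), and the part of these differences in the SR gene values was not tested. The leukocyte genes PTPRC and CD3E were at 0 counts in all 6 libraries. The markers of leukocytes, endothelium and fibroblasts summed to 19.6 to 95.6 CPM with DMSO and 18.0 to 378 CPM with AL-X. The 378 was that of HCC827, where CD68 alone was at 371 CPM.

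Under DMSO the 10 genes were expressed at like levels in the 3 lines. The highest line exceeded the lowest by 1.09-fold (SRSF4) to 1.47-fold (SRSF3) for 9 of the genes, and by 3.01-fold for SRSF11, where HCC827 stood above the other lines. Per kilobase of the principal transcript, the level of SRSF1 was the highest, 217 ± 29.4 CPM per kb (SD, n = 3). SRSF5 was at 86.1 ± 10.4 and SRSF2 at 82.1 ± 12.4 CPM per kb (SD, n = 3). The order went on with SRSF10, SRSF11, SRSF3, SRSF6, SRSF7 and TRA2A, and ended with SRSF4 at 30.2 ± 1.41 CPM per kb (SD, n = 3). Of the 9 pairs of neighbours in this order, SRSF1 and SRSF5 were the only pair whose ranges over the 3 lines did not overlap. This order depends on the length chosen, as counts are summed over all transcripts of a gene. The merged exons of SRSF1 and SRSF10 cover 3340 and 10277 bases, against 1513 and 1631 in the principal transcript.

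With AL-X the lines came apart. The highest line exceeded the lowest by 3.28-fold (SRSF10) to 46.3-fold (SRSF7). The order of the levels also differed by line, per kilobase of the principal transcript and so subject to the same choice of length. SRSF7 was the highest in A549, ahead of SRSF2 with 996 CPM per kb. SRSF11 was the highest in HCC827 with 72.0 CPM per kb, and SRSF2 in H1975 with 338 CPM per kb. Summed over the 10 genes, the DMSO library of A549 gave them 0.196% of its counts (95% interval 0.1951 to 0.1967) and the AL-X library 0.659% (0.6579 to 0.6608). For H1975 the DMSO share was 0.181% (0.1802 to 0.1819) and the AL-X share 0.355% (0.3539 to 0.3561). For HCC827 the DMSO share was 0.231% (0.2298 to 0.2315) and the AL-X share 0.123% (0.1223 to 0.1237), the opposite direction. These shares are relative to library totals, not TMM-scaled, and their exact binomial intervals cover counting error only. In bulk RNA, fewer cells that express a gene and less of its RNA per cell cannot be told apart.

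**Figure D1:**
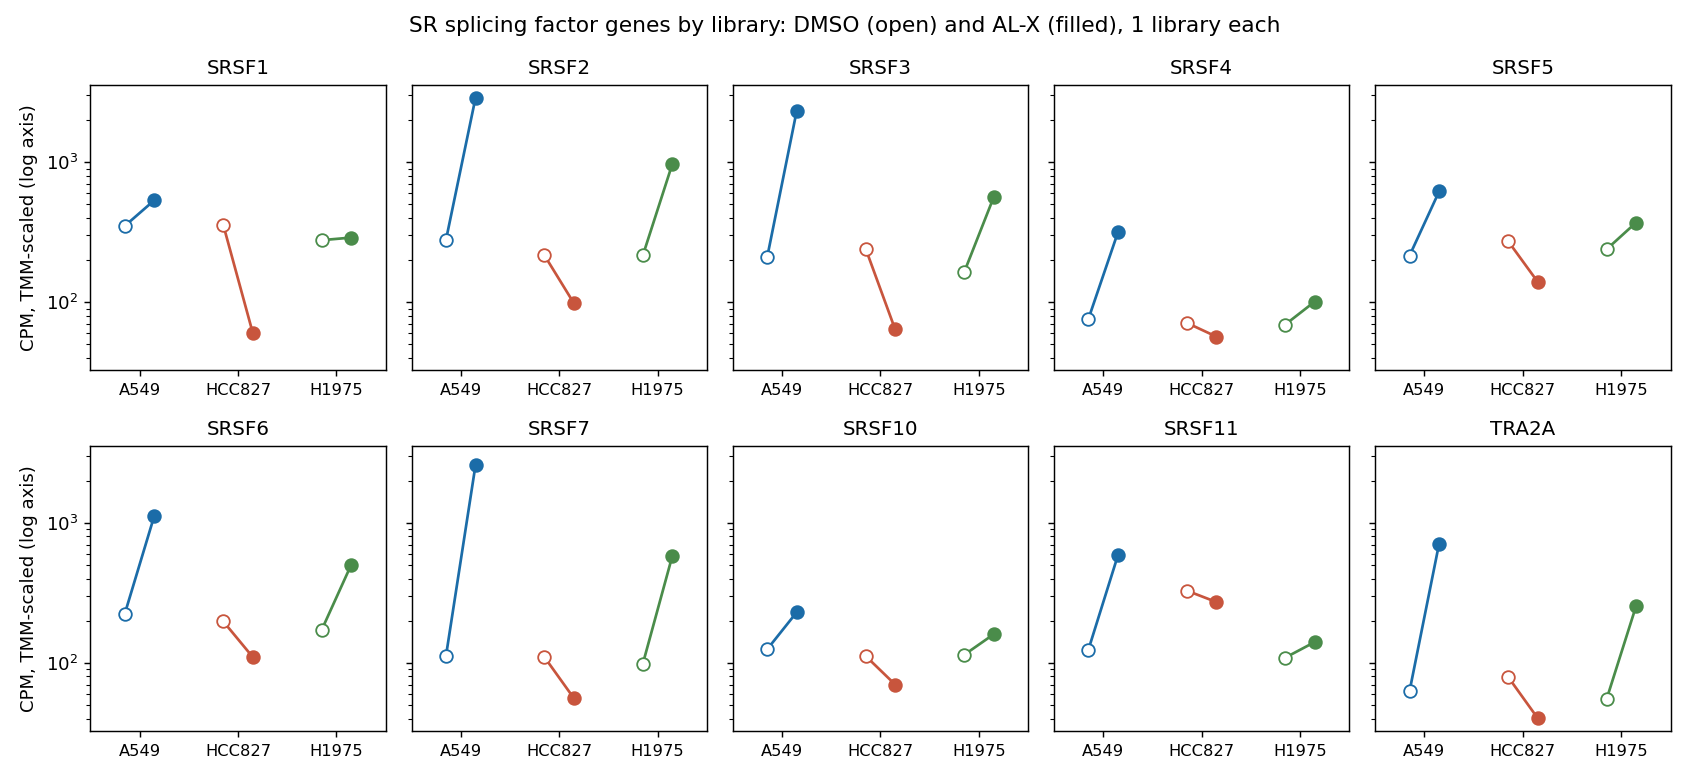
Level of each of the 10 SR genes in the 6 libraries, in TMM-scaled CPM on a log axis, with 1 point for each library and no error bars, since each line and treatment gave 1 library. The DMSO points of a gene lie close together, except for SRSF11, whereas the AL-X points spread, A549 being the highest for all 10 genes and HCC827 the lowest for all but SRSF11.

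SRSF3 and SRSF7 each carry a single RNA recognition motif and are best known as adaptors that hand spliced messages to the export receptor NXF1. In CPM, SRSF7 stood at 112 with DMSO and 2582 with AL-X in A549, at 110 and 55.8 in HCC827, and at 98.9 and 584 in H1975. The AL-X library of A549 was the highest of the 6 and that of HCC827 the lowest, so the DMSO and AL-X groups overlapped. The AL-X level was 23.0-fold the DMSO level in A549 and 5.91-fold in H1975, and 1.97-fold lower than DMSO in HCC827. Across lines the log2 fold of SRSF7 was 2.19 (SE 1.12, adjusted p = 0.361, edgeR quasi-likelihood test with the line as a block). With library totals alone its log2 folds were 3.52, -0.85 and 2.15 in A549, HCC827 and H1975, the same directions.

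SRSF3 stood at 209 and 2324 CPM in A549 (DMSO, then AL-X), at 241 and 63.8 CPM in HCC827, and at 163 and 560 CPM in H1975. As for SRSF7, the AL-X values lay on either side of all 3 DMSO values. The AL-X to DMSO ratio was 11.1 in A549 and 3.42 in H1975, and SRSF3 was 3.77-fold lower with AL-X in HCC827. The across-line log2 fold was 1.29 (SE 1.09, edgeR adjusted p = 0.568).

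SRSF2, which binds exonic enhancers and is retained in the nucleus, was at 278 and 2874 CPM in A549, 216 and 98.0 CPM in HCC827, and 216 and 974 CPM in H1975 (DMSO, then AL-X). A549 with AL-X was the highest of the 6 libraries and HCC827 with AL-X the lowest. The ratios were 10.3 in A549 and 4.51 in H1975, and the level was 2.21-fold lower with AL-X in HCC827. Across lines the log2 fold was 1.60 (SE 1.00, edgeR adjusted p = 0.447). SRSF2 lies opposite MFSD11, whose counts were 2483 to 4295 in the 6 libraries and at most 20.3% of those of SRSF2. Since it is not given whether the counting used strand, reads of the overlap cannot be assigned to one of these genes.

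TRA2A, a human relative of the fly sex determination factor Transformer-2 with an arginine/serine region at both ends, was at 63.0 and 711 CPM in A549, 79.5 and 40.4 CPM in HCC827, and 54.8 and 254 CPM in H1975. The groups overlapped, with HCC827 again the line whose AL-X library lay below its DMSO library. The ratios were 11.3 in A549 and 4.63 in H1975, and the level was 1.97-fold lower with AL-X in HCC827. Its across-line log2 fold was 1.70 (SE 0.88, edgeR adjusted p = 0.366).

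SRSF4, SRSF5 and SRSF6 carry a second, atypical recognition motif and are closely related to each other. SRSF6 was at 224 and 1123 CPM in A549, 198 and 110 CPM in HCC827, and 172 and 502 CPM in H1975. SRSF5 was at 215 and 617 CPM in A549, 273 and 140 CPM in HCC827, and 238 and 370 CPM in H1975. SRSF4 was at 75.7 and 315 CPM in A549, 71.1 and 56.7 CPM in HCC827, and 69.2 and 101 CPM in H1975. All 3 genes had their highest level in A549 with AL-X and their lowest in HCC827 with AL-X. The AL-X to DMSO ratios of SRSF6, SRSF5 and SRSF4 were 5.01, 2.87 and 4.16 in A549, and 2.92, 1.55 and 1.45 in H1975. In HCC827 these genes were lower with AL-X by 1.79-fold, 1.96-fold and 1.25-fold in the same order. SRSF6 had an across-line log2 fold of 1.06 (SE 0.76, edgeR adjusted p = 0.502). For SRSF5 and SRSF4 it was 0.41 (SE 0.65, edgeR adjusted p = 0.769) and 0.74 (SE 0.57, edgeR adjusted p = 0.529), and that of SRSF5 was -0.03 with library totals alone.

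SRSF1, the founding member of the family and a known proto-oncogene, had the lowest AL-X to DMSO ratio of the 10 in each of the 3 lines. It was at 350 and 534 CPM in A549, 357 and 60.3 CPM in HCC827, and 277 and 289 CPM in H1975. The AL-X library of HCC827 lay far below the other 5, which were within 277 to 534 CPM. The level was 5.91-fold lower with AL-X in HCC827, a log2 fold of -2.56 (exact binomial 95% interval -2.60 to -2.53). The log2 folds of 0.61 in A549 and 0.06 in H1975 became -0.40 and -0.35 under library totals alone. Across lines it was -0.56 (SE 0.74, edgeR adjusted p = 0.715), the single negative value among the 10 (SRSF5 and SRSF10 joined it with library totals alone). The gene AC015813.2 overlaps SRSF1 on the same strand, with at most 4.67% of its counts.

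SRSF10 and SRSF11 differ from the classical members: SRSF10 turns into a general repressor of splicing when dephosphorylated, as in heat shock or mitosis, and SRSF11 is an SR-related protein of the larger group. SRSF10 was at 125 and 230 CPM in A549, 112 and 70.0 CPM in HCC827, and 114 and 160 CPM in H1975. Its AL-X to DMSO ratio of 1.84 in A549 was the second lowest there and passed to a log2 fold of -0.12 with library totals alone. SRSF11 was at 124 and 586 CPM in A549, 328 and 272 CPM in HCC827, and 109 and 141 CPM in H1975. Its 2 HCC827 libraries were both above all others except A549 with AL-X. The SRSF11 ratio was 4.74 in A549, whereas the log2 fold of 0.37 in H1975 was -0.04 with library totals alone. Across lines SRSF10 had a log2 fold of 0.24 (SE 0.52, edgeR adjusted p = 0.838) and SRSF11 one of 0.76 (SE 0.65, edgeR adjusted p = 0.573).

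Read line by line, all 10 genes were higher with AL-X in A549 and H1975 and lower in HCC827, and library totals alone left 8 higher in A549, 8 higher in H1975 and 10 lower in HCC827. The exceptions with library totals were SRSF1 and SRSF10 in A549 and SRSF1 and SRSF11 in H1975. In A549, 8 of the 10 were at least 2-fold higher, against 30.0% of the 11825 genes that reached 5 CPM, and 0 were 2-fold lower, against 31.4%. In H1975, SRSF7, TRA2A, SRSF2, SRSF3 and SRSF6 were at least 2-fold higher, 5 of 10, against 15.4% of 11784 genes, and 0 were 2-fold lower, against 17.7%. In HCC827, SRSF1, SRSF3 and SRSF2 were at least 2-fold lower, 3 of 10, against 17.2% of 11898 genes, and 0 were 2-fold higher, against 10.7%. At 1.5-fold, 8 of the 10 were lower there, against 28.0% of genes. Over the 10 genes the median log2 folds were 2.28 (A549), -0.97 (HCC827) and 1.09 (H1975), against -0.28, -0.07 and -0.20 over all genes tested. With library totals alone these medians were 1.28, -0.84 and 0.68 for the 10, against -1.25, 0.03 and -0.60 for all genes. These within-line values rest on 1 library each and have no replicate check. The list was chosen with earlier results known, so the shares set beside it are descriptions.

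**Figure D2:**
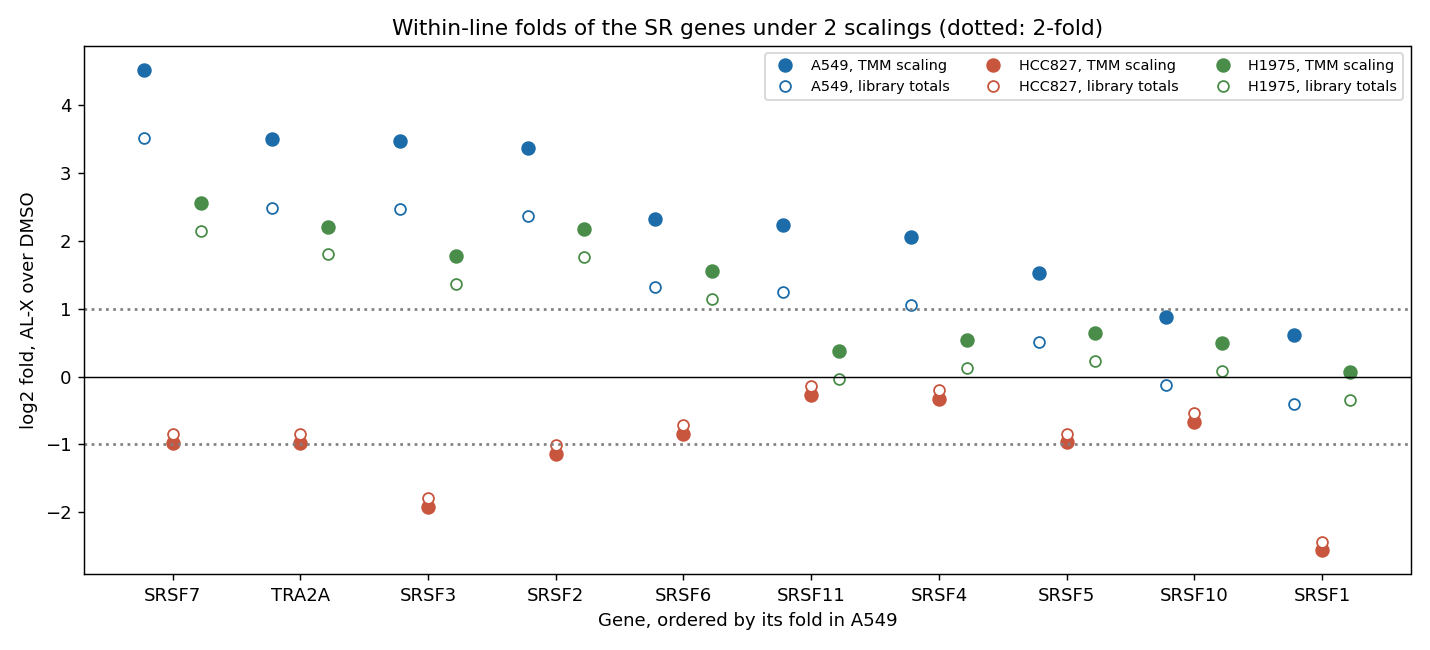
Log2 fold of AL-X over DMSO for the 10 SR genes in each line, with TMM scaling and with library totals alone, and 0 marking equal levels. With TMM scaling all A549 and H1975 points lie above 0 and all HCC827 points below it, and with library totals SRSF1 (both lines), SRSF10 (A549) and SRSF11 (H1975) pass below 0.

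The pattern of higher in A549 and H1975 and lower in HCC827 was held by all 10 SR genes with TMM scaling and by 7 with library totals alone. Of all 20344 genes tested, 12.8% held it with TMM scaling and 6.11% with library totals. Among the 4558 protein-coding genes with a mean of at least 50 CPM, which are nearer to the SR genes in level, 22.7% held it. The 6-library profile of 8 members followed the median profile of the group, with r from 0.951 (SRSF4) to 0.996 (SRSF3 and SRSF6), whereas SRSF1 reached 0.725 and SRSF11 0.494. These r are descriptions over 6 shared libraries, and the median profile contains each member.

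The test across lines asks whether the mean AL-X effect over the 3 lines differed from 0, not whether the lines agreed in direction. edgeR called 0 of the 10 SR genes at an adjusted p under 0.05, and 0 had an unadjusted p under 0.05. The background was small: of all genes tested, 0.0983% were called higher and 0.157% lower, and 5.48% and 10.2% passed without adjustment. SRSF7 (unadjusted p = 0.0737, edgeR) and TRA2A (unadjusted p = 0.0762, edgeR) came nearest. DESeq2 called 0 of the 10 with 1 higher at an unadjusted p under 0.05, and limma-voom called 0 with 3 higher. Of all genes, the calls of DESeq2 were 2.81% higher and 7.27% lower, and those of limma-voom 1.59% and 1.66%. Without adjustment, 4.35% passed as higher in DESeq2 (10.2% as lower) and 7.84% in limma-voom (12.3% as lower). The median across-line log2 fold of the 10 was 0.91, against -0.27 over all genes. With TMM scaling, no SR gene had AL-X values all above or all below its DMSO values. Of all genes, with the same scaling, 7.78% had all above and 9.54% all below. No SR gene had the same sign in the 3 lines with TMM scaling, whereas 16.8% of genes were higher in all 3 and 25.4% lower. SRSF1 was the exception with library totals alone, with all its AL-X values below its DMSO values. Its log2 folds were then -0.40, -2.44 and -0.35 in A549, HCC827 and H1975.

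The outcome of this test depended on which lines entered it. With HCC827 left out, which leaves 4 libraries and 1 residual degree of freedom, all 10 log2 folds were positive, with a median of 1.58. SRSF7 was then called higher, with a log2 fold of 3.50 (SE 0.66, edgeR adjusted p = 0.0473), against 0.613% of genes called higher and 0.275% lower. Without A549 the log2 fold of SRSF7 was 0.84 (edgeR adjusted p = 0.9213), and without H1975 it was 1.77 (edgeR adjusted p = 0.932). Those of SRSF2, SRSF3 and TRA2A without A549 were 0.56, -0.02 and 0.66. The median of the 10 was 0.13 without A549, with 6 genes higher and 4 lower, and 0.82 without H1975.

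Whether HCC827 differed from the other 2 lines was tested with an interaction term. The AL-X effect in HCC827 minus that in the other 2 lines was negative for all 10 genes, from -4.54 (SRSF3) to -1.36 (SRSF10), with a median of -2.84 against 0.14 over all genes. edgeR called 0 of the 10 at an adjusted p under 0.05, where 0.172% of genes were called lower and 0.0885% higher. The lowest adjusted p were 0.0908 for SRSF3 (difference -4.54, SE 1.28) and 0.0915 for SRSF7 (difference -4.52, SE 1.28). Next came TRA2A with a difference of -3.83 (SE 1.19, edgeR adjusted p = 0.139) and SRSF2 with -3.91 (SE 1.27, edgeR adjusted p = 0.182). Without adjustment, SRSF1, SRSF2, SRSF3, SRSF6, SRSF7 and TRA2A were below 0.05, 6 of 10, where 3.38% of all genes were below it and lower.

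The same term for A549 gave differences of 0.97 (SRSF10) to 3.73 (SRSF7), with 0 called by edgeR (adjusted p from 0.335 to 0.764). Of all genes, 0.0983% were called higher and 0.182% lower. SRSF3, SRSF4, SRSF7, SRSF11 and TRA2A were below 0.05 without adjustment, 5 of 10, against 4.68% of genes below it and higher. For H1975 the differences ran from -0.62 (SRSF11) to 1.06 (SRSF2), with 0 of 10 called and 0 below 0.05 without adjustment, where 0.462% of genes were below it and higher and 0.698% lower, and 0.0% of genes were called. These interaction tests leave 1 residual degree of freedom, and a line set against the rest is assumed to vary as they do. Their p-values therefore lean on the spread shared over all genes tested.

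**Figure D3:**
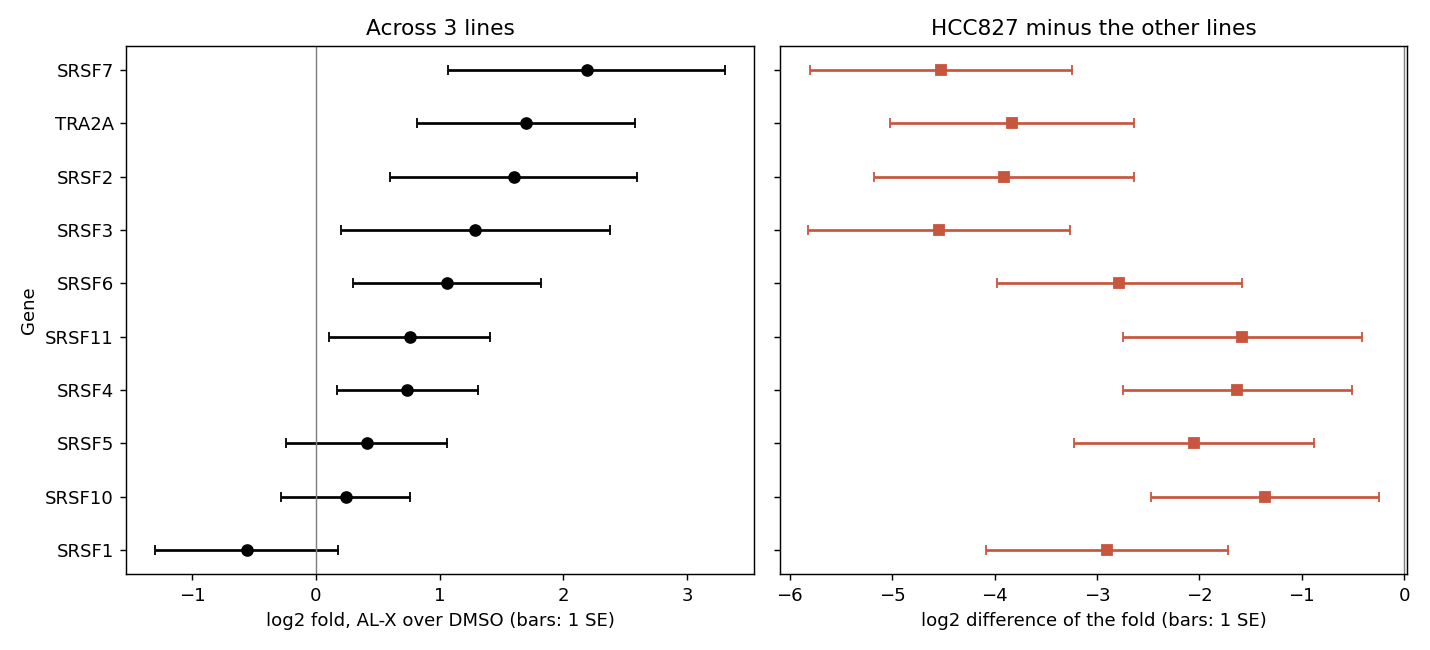
Log2 folds of the 10 SR genes from edgeR, with bars of 1 SE, for the effect of AL-X across the 3 lines and for the effect in HCC827 minus that in the other 2 lines. The across-line values run from -0.56 to 2.19 with an SE of 0.52 to 1.12, and all 10 differences of HCC827 lie below 0, the lowest being those of SRSF3 and SRSF7.

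Messages that nonsense-mediated decay would remove are annotated in all 10 genes, with 1 to 6 transcripts each and the most in SRSF7. Of the 14326 protein-coding genes tested, 41.8% have such a transcript. Transcripts that keep an intron are annotated for 8 of the 10, the exceptions being SRSF6 and SRSF11, with up to 8 in SRSF5, and for 55.4% of the protein-coding genes. The counts are summed over all transcripts of a gene, so protein-coding and decay-targeted messages cannot be told apart in the values above.

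The other parts of the splicing machinery were set beside the SR genes as lists. Of 22 other SR and RS-domain proteins, 12 held the pattern of the 10 genes, and the median log2 folds were 1.67 in A549, -0.48 in HCC827 and 0.42 in H1975 (0.66, -0.35 and 0.01 with library totals). edgeR called 0 of the 22 across lines, with 2 higher and 1 lower at an unadjusted p under 0.05. TRA2B, the paralog of TRA2A, was at 149 and 2189 CPM in A549, 156 and 106 CPM in HCC827, and 148 and 1091 CPM in H1975. Its across-line log2 fold was 2.21 (SE 0.99, edgeR adjusted p = 0.311), but it was 3.34 without HCC827 (edgeR adjusted p = 0.0358), 1.20 without A549 (edgeR adjusted p = 0.8245) and 1.65 without H1975 (edgeR adjusted p = 0.9213). RSRC2, an arginine/serine-rich coiled-coil protein, was higher with AL-X in all 3 lines, with log2 folds of 4.89, 0.62 and 3.19 in A549, HCC827 and H1975. It had an across-line log2 fold of 2.95 (SE 0.92, edgeR adjusted p = 0.182) and was called by DESeq2 (adjusted p = 0.0089) and by limma-voom (adjusted p = 0.0149). At the low end of the list, SCAF11 had an across-line log2 fold of -0.41 (SE 0.50). DESeq2 called SRSF12, a low-expressed paralog of SRSF10, lower; it was chosen for mention after its values were seen.

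Of 13 genes for the kinases and phosphatases that act on SR proteins and their import receptor TNPO3, 2 held the pattern, and the median log2 folds were 1.26, -0.05 and -0.10 in A549, HCC827 and H1975 (0.26, 0.07 and -0.51 with library totals). edgeR called 0 of the 13, with 2 higher and 1 lower at an unadjusted p under 0.05, and DESeq2 and limma-voom called 0. The nuclear kinase CLK1 was higher with AL-X in all 3 lines, at 49.9 and 664 CPM in A549, 70.9 and 89.5 CPM in HCC827, and 48.4 and 150 CPM in H1975 (across-line log2 fold 1.87, SE 0.71, edgeR adjusted p = 0.248). CLK3 was also higher with AL-X in each line, with log2 folds of 2.87, 1.24 and 0.44 (1.86, 1.37 and 0.03 with library totals; edgeR adjusted p across lines = 0.247). The cytoplasmic kinase SRPK1 was lower with AL-X in all 3 lines, at 83.1 and 29.9 CPM in A549, 194 and 109 CPM in HCC827, and 94.6 and 55.1 CPM in H1975 (across-line log2 fold -1.03, SE 0.47, edgeR adjusted p = 0.314).

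The hnRNP proteins, which often oppose SR proteins at splice sites, had the pattern in 18 of 23 genes. Their median log2 folds were 1.67, -0.92 and 0.64 in A549, HCC827 and H1975 (0.67, -0.79 and 0.23 with library totals), and 9 of 23 were at least 2-fold lower in HCC827. edgeR called 0 of them across lines, with 1 higher and 0 lower at an unadjusted p under 0.05, and DESeq2 and limma-voom called 0. Among 36 core spliceosome genes 23 held the pattern, with medians of 1.61, -0.25 and 0.92 (0.60, -0.12 and 0.51 with library totals). edgeR called 0 of the 36, with 4 higher and 0 lower at an unadjusted p under 0.05, and DESeq2 and limma-voom called 0. U2AF2, the subunit that binds the polypyrimidine tract, had log2 folds of 2.92, 0.18 and 1.94 in the 3 lines (across-line 1.70, SE 0.78).

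Among 21 other regulators of alternative splicing, 8 held the pattern, with medians of 1.21, -0.32 and 0.47 (0.21, -0.19 and 0.06 with library totals). edgeR called 0, with 2 higher and 4 lower at an unadjusted p under 0.05, and DESeq2 and limma-voom called 0. The epithelial splicing regulator ESRP1 was at 244 and 111 CPM in HCC827 and 219 and 113 CPM in H1975, and at 0.747 and 0 CPM in A549. In the list of 16 genes of nonsense-mediated decay and the exon junction complex, 3 held the pattern, with medians of 0.92, 0.31 and 0.38 for A549, HCC827 and H1975 (-0.09, 0.43 and -0.03 on library totals). edgeR called 0 of the 16, with 2 higher and 0 lower at an unadjusted p under 0.05. EIF4A3, the helicase that anchors the exon junction complex, was at 77.8 and 2458 CPM in A549, 66.6 and 135 CPM in HCC827, and 78.8 and 455 CPM in H1975. Its across-line log2 fold was 2.79 (SE 0.88, edgeR adjusted p = 0.185), and DESeq2 (adjusted p = 0.0106) and limma-voom (adjusted p = 0.0146) called it.

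**Figure D4:**
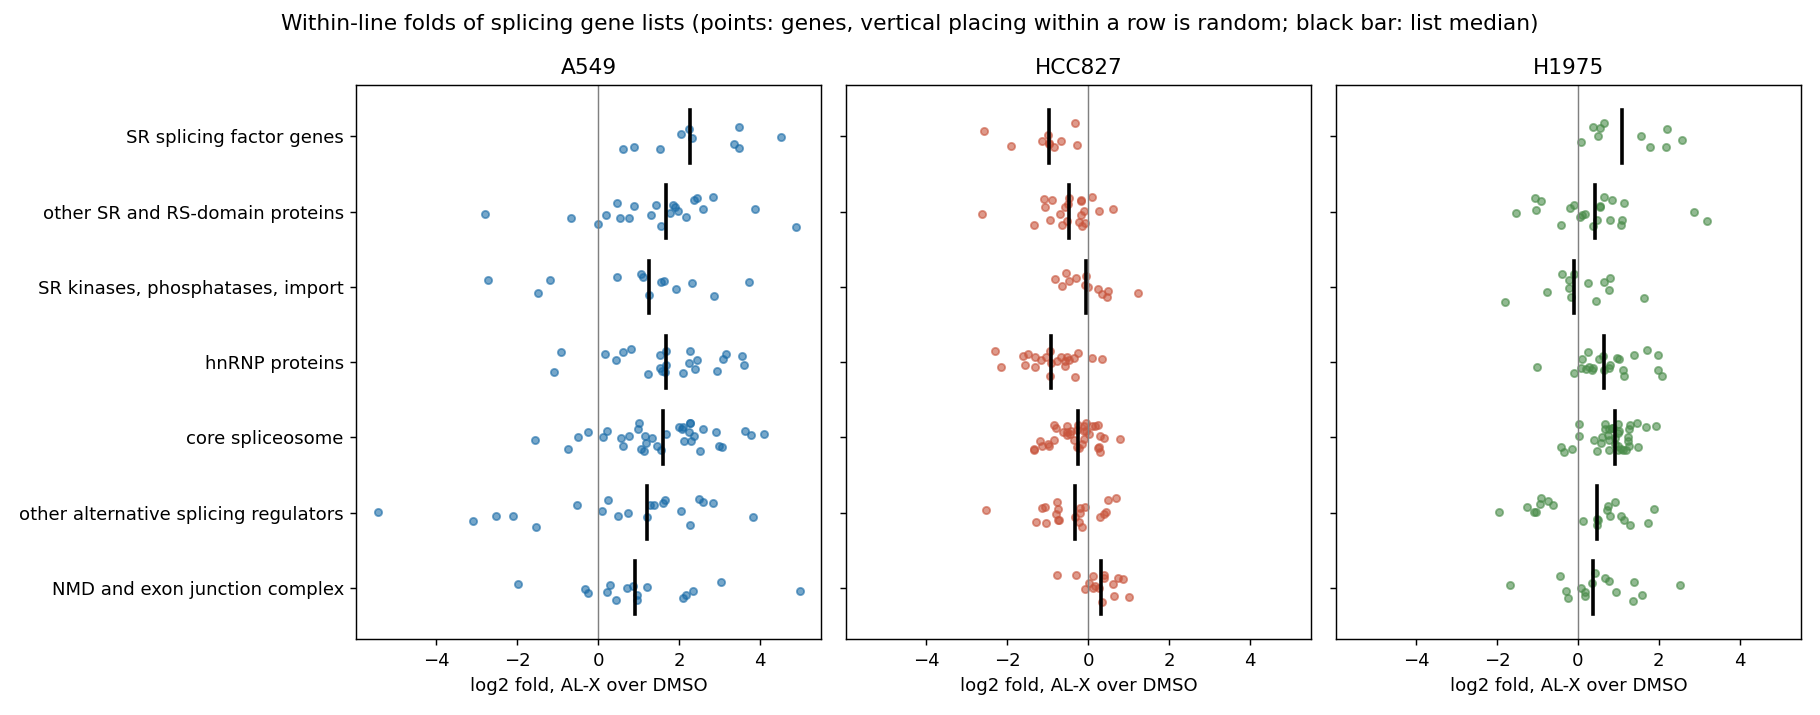
Log2 folds of AL-X over DMSO with TMM scaling for the 10 SR genes and the 6 other lists of the splicing machinery in each line, with 1 point for each gene and a bar for the median of a list. In HCC827 the lowest medians are those of the SR genes (-0.97) and the hnRNP proteins (-0.92), and in A549 the SR genes have the highest median (2.28), which is 1.28 with library totals alone.

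The genes whose 6-library profile was most like the median profile of the SR genes were found among 10938 other genes. HNRNPDL, an hnRNP protein, came first with r = 0.9985, at 191 and 2251 CPM in A549, 188 and 75.4 CPM in HCC827, and 137 and 579 CPM in H1975. The chaperone HSP90AB1 (r = 0.9975), the mitochondrial ribosome gene MRPL22 (0.997), the acidic nuclear protein gene ANP32B (0.9966) and the adenine nucleotide carrier gene SLC25A5 (0.9953) followed. HSP90AB1 was at 1234 and 9413 CPM in A549, 1499 and 611 CPM in HCC827, and 1134 and 3228 CPM in H1975. The ratios of these genes were not equal: the log2 fold in A549 was 3.56 for HNRNPDL and 1.07 for MRPL22. These r are ranks over 6 libraries chosen from many genes, and carry no test.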

How the data were processed

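The table that the authors deposited holds raw read counts, whole numbers, for 60671 Ensembl genes in 6 libraries. Trizol was used for the total RNA and a SureSelect XT HS2 mRNA kit for the libraries, per the labels' protocols. The submitters' processing notes name bcl2fastq 2.20 and GRCh38. Alignment, counting, the gene models and whether strand or molecular barcodes were used: not given in the sources used here.

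Identifiers were matched to symbols for 60401 genes. Positions and transcripts are those of GENCODE 29 on GRCh38, and promoter windows those of RefSeq GRCh38.p14. The effect of AL-X across lines was tested in R 4.3.3 with edgeR 4.0.16 (TMM, filterByExpr, robust quasi-likelihood, the line as a block, Benjamini-Hochberg adjustment over 20344 genes at 0.05), which left 2 residual degrees of freedom. The block is the cell line of the labels: deviations from the group means of the 2 libraries of a line correlated at 0.656 (A549), 0.521 (HCC827) and 0.694 (H1975). Within a line, log2 folds were taken from TMM-scaled CPM (prior count 2) and called at 2-fold where either library reached 5 CPM, without a test. Exact binomial 95% intervals cover counting error only. An interaction term tested whether 1 line differed from the remaining 2. Profiles were compared by Pearson's r of log2 CPM with a pseudocount of 0.1. DESeq2 1.42.0 and limma 3.58.1 (voom) were among the alternatives.

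The 10 genes and the other lists were chosen with earlier results of these data known. All 10 are described, and from each other list genes at the 3 highest and 3 lowest across-line folds with a mean of at least 5 CPM could be named. The edgeR fit was tested on simulated data of 19148 genes: it called 0% of changed genes at a log2 fold of 1, 20% at 2, 90% at 4 and 100% at 6. It also called 11 genes that had been left unchanged. Each changed gene was given the same fold in all 3 lines. The SR genes differed in direction between lines, so these shares do not apply to them.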

Additional observations from a re-analysis of the deposited data

How the results depend on the processing

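The fit across lines called 20 genes higher and 32 lower. Library totals alone, no low-count filter and no replicate block each called 0 higher and 0 lower (2792, 3352 and 1722 genes at an unadjusted p under 0.05). With mitochondrial genes left out it was 8 and 4, with DESeq2 561 and 1453, with limma-voom 323 and 338, and with a line left out 28 to 127 higher and 57 to 78 lower. SR genes called higher were 0 to 1 with a line left out and 0 in the other settings. Without the replicate block, which pairs libraries by line, the median SR gene log2 fold was 1.34 (0.91 with it). At 1.5-fold, 8 SR genes were lower in HCC827 in place of 3.

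Single genes passed to the other sign in 20 of the recomputed values. With library totals the log2 folds were -0.0284 (SRSF5), -0.20 (SRSF10), -0.29 (PRPF4B), -0.42 (SMG8), -0.32 (MAGOHB) and -0.0448 (MRPL22). SMG8 was at -0.0882 with no low-count filter and -0.0402 with DESeq2, and ARGLU1 at 0.36 with no replicate block. With a line left out, the ranges that crossed 0 were -1.20 to 0.30 (SRSF1), -0.0218 to 2.59 (SRSF3), -0.12 to 1.04 (SRSF5), -0.0436 to 0.65 (SRSF10), -1.19 to 0.24 (ARGLU1), -0.38 to 0.49 (PRPF4B), -1.14 to 0.13 (SMG6), -0.48 to 0.80 (SMG8) and -0.17 to 0.51 (MAGOHB). SRSF1 was positive without HCC827 alone, and SRSF3, SRSF5 and SRSF10 were negative without A549 alone. The cause was not tested. Counting intervals within a line were narrow for the SR genes, but they do not cover the spread between cultures.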

Other observations

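Over the 10 SR genes, the log2 folds in A549 and H1975 ran in nearly the same order (Pearson's r = 0.918, Spearman's rho = 0.903), in 2 lines that share no library. The folds in HCC827 ran in no like order, with r = 0.114 and rho = -0.2 against A549, and r = -0.01 and rho = -0.309 against H1975. These are correlations across 10 genes, which share their libraries and are not independent replicates, so no p is given. SRSF1 was an exception, with the lowest fold of the 10 in all 3 lines, 0.61, -2.56 and 0.06 on the log2 scale in A549, HCC827 and H1975. SRSF7 had the highest fold in A549 (4.52) and H1975 (2.56), whereas in HCC827 SRSF11 was the least reduced (-0.27) and SRSF7 stood at -0.98. With library totals alone SRSF1 was at -0.40, -2.44 and -0.35. The fold was weakly related to the DMSO level, with r of -0.307, -0.469 and -0.245 in A549, HCC827 and H1975. The DMSO level is the denominator of the fold, so they are not independent and these r are descriptions. The r of the fold with the length of the principal transcript was 0.394, 0.222 and 0.257.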
